A study of Homo sapiens with 6 samples.

Results

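The genes described here encode the machinery that takes messenger RNA apart: decapping enzymes and their activators, the 5′ to 3′ exonuclease XRN1, deadenylases and the factors that recruit them, and the RNA exosome with its nucleases and the SKI helicase complex. They were chosen by name for their role in decay, 49 genes in all, with earlier results of these data known. All 49 were found among the 24703 genes that had any count, and all 49 were among the 15224 genes with enough counts to test. The libraries came from Rh30, a cell line of alveolar rhabdomyosarcoma, a soft-tissue tumour of the muscle lineage, and the line is PAX3-FOXO1 fusion positive. The 3 libraries labelled control and the 3 labelled siDDX5 differed in a knockdown of DDX5, a DEAD-box RNA helicase, and both groups carry the fusion. The labels give the 3 libraries of each group as biological replicates of a single line, and the agent, dose and time of the knockdown and the kind of control are not given in the sources used here.

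Most messenger RNAs begin to decay when their poly(A) tail is shortened, first by the PAN2-PAN3 enzyme and then by the CCR4-NOT complex. A deadenylated RNA can lose its cap to the enzyme DCP2, which works with DCP1, EDC3, EDC4, PATL1 and the ring of LSM1 to LSM7 proteins, and is then digested from the 5′ end by XRN1. Alternatively it is digested from the 3′ end by the exosome, a barrel of EXOSC proteins that carries a DIS3-type nuclease and, in the cytoplasm, is fed by the SKI helicase.

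Library totals ran from 21265569 to 26156858 estimated counts in control and from 18202402 to 19971888 in siDDX5, so every siDDX5 library was the shallower. DDX5 itself lay at 1137 to 1434 CPM (counts on a common library size, scaled with TMM factors) in control and at 396 to 549 CPM in siDDX5, with no overlap. Of 9 muscle-lineage markers, 8 exceeded 1 TPM (transcripts on a common total, scaled for length) and their summed level was 1000 to 1340 TPM in control and 971 to 1060 TPM in siDDX5, while IGF2 reached at most 0.222 TPM. Summed epithelial, blood and endothelial markers were at most 1.42, 4.36 and 7.27 TPM, and the epithelial marker KRT19 was listed at 0 throughout. In bulk libraries such as these, fewer cells that hold an RNA and less of it per cell cannot be told apart.

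Of the 49 decay genes, 1 changed at the gene level: DCP2, the catalytic decapping enzyme, was 2.22-fold higher in siDDX5 cells (edgeR's quasi-likelihood test, Benjamini-Hochberg adjusted p under 0.05 over all genes). No member was lower by that test, and 48 did not pass it. In the same test 0.164% of all genes were called, 0.0525% higher and 0.112% lower. A second model had replicate number as blocking term, because the titles share replicate numbers, though the labels do not state a pairing. It called 2.59% of all genes (1.14% higher, 1.45% lower) and again 1 member, DCP2. All 48 other members lay within 0.4 of 0 on the log2 scale, where 86.7% of all genes lay, and ranged from -0.31 to 0.37. Their log2 fold changes were positive for 30 and negative for 17, with CNOT10 at 0.00, and their median was 0.052 beside -0.002 over all genes. The plot of log2 fold changes by step shows DCP2 standing alone to the right of a narrow band.

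**Figure D1:**
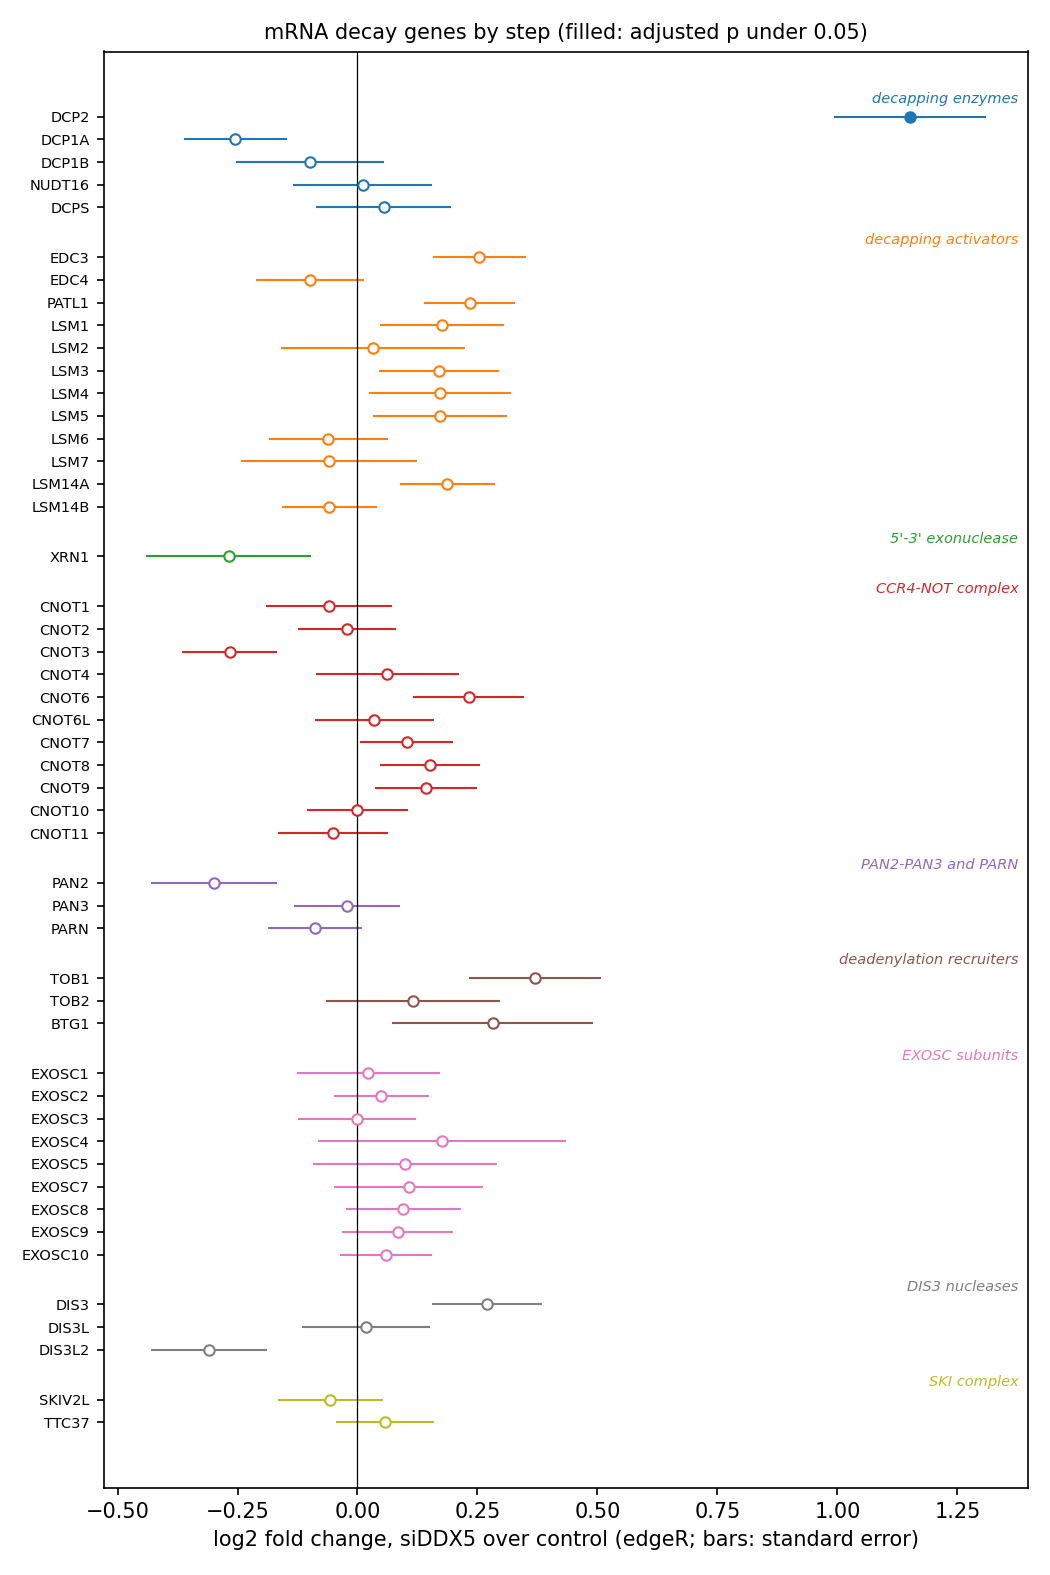
Log2 fold change of each of the 49 decay genes, siDDX5 over control, with its standard error from edgeR (horizontal axis), ordered by step of decay; a filled point marks an adjusted p under 0.05. DCP2 lies at 1.15 and the other 48 genes lie between -0.31 and 0.37.

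Without adjustment for multiple testing, 9 members (18.4%) had an edgeR p under 0.05, beside 11.4% of all genes, and 5 of those were higher and 4 lower in siDDX5. With the block there were 12 (24.5%), beside 20.5% of all genes. The 3 siDDX5 libraries lay entirely outside the control range for 9 members (18.4%), beside 18.1% of all genes: 6 above (DCP2, EDC3, PATL1, LSM14A, CNOT7 and CNOT8, beside 8.86% of all genes) and 3 below (DCP1A, CNOT3 and DIS3L2, beside 9.22%). Within the same-numbered pairs, 18 members (36.7%) were higher in siDDX5 in all 3 pairs, beside 21.9% of all genes, and 6 (12.2%) were lower in all 3, beside 21.1%. The share of members outside the control range was thus near that of all genes, while more members than genes at large were higher in every pair and fewer were lower, a difference that was not tested.

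Levels were compared between genes in TPM, which is scaled for transcript length. XRN1 was the most abundant member by its mean over the 6 libraries, at 244 ± 35.6 TPM (SD, n = 3) in control and 183 ± 63.0 TPM in siDDX5. CNOT1, the scaffold of the CCR4-NOT complex, came next at 162 ± 14.6 TPM in control and 172 ± 48.3 TPM in siDDX5, followed by EXOSC9 at 135 ± 12.4 and 139 ± 14.96 TPM. XRN1 and CNOT1 overlapped each other in siDDX5 but not in control, as the plot of TPM by library shows. At the other end stood 3 decapping-step genes: DCP1B at 10.2 ± 1.27 and 9.06 ± 0.97 TPM, the scavenger enzyme DCPS at 10.2 ± 0.55 and 11.4 ± 2.17 TPM, and the Nudix decapping enzyme NUDT16 at 12.8 ± 1.83 and 12.7 ± 2.42 TPM. Their ranges overlapped. DCP2 ranked 33 of the 49 members by mean level.

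**Figure D2:**
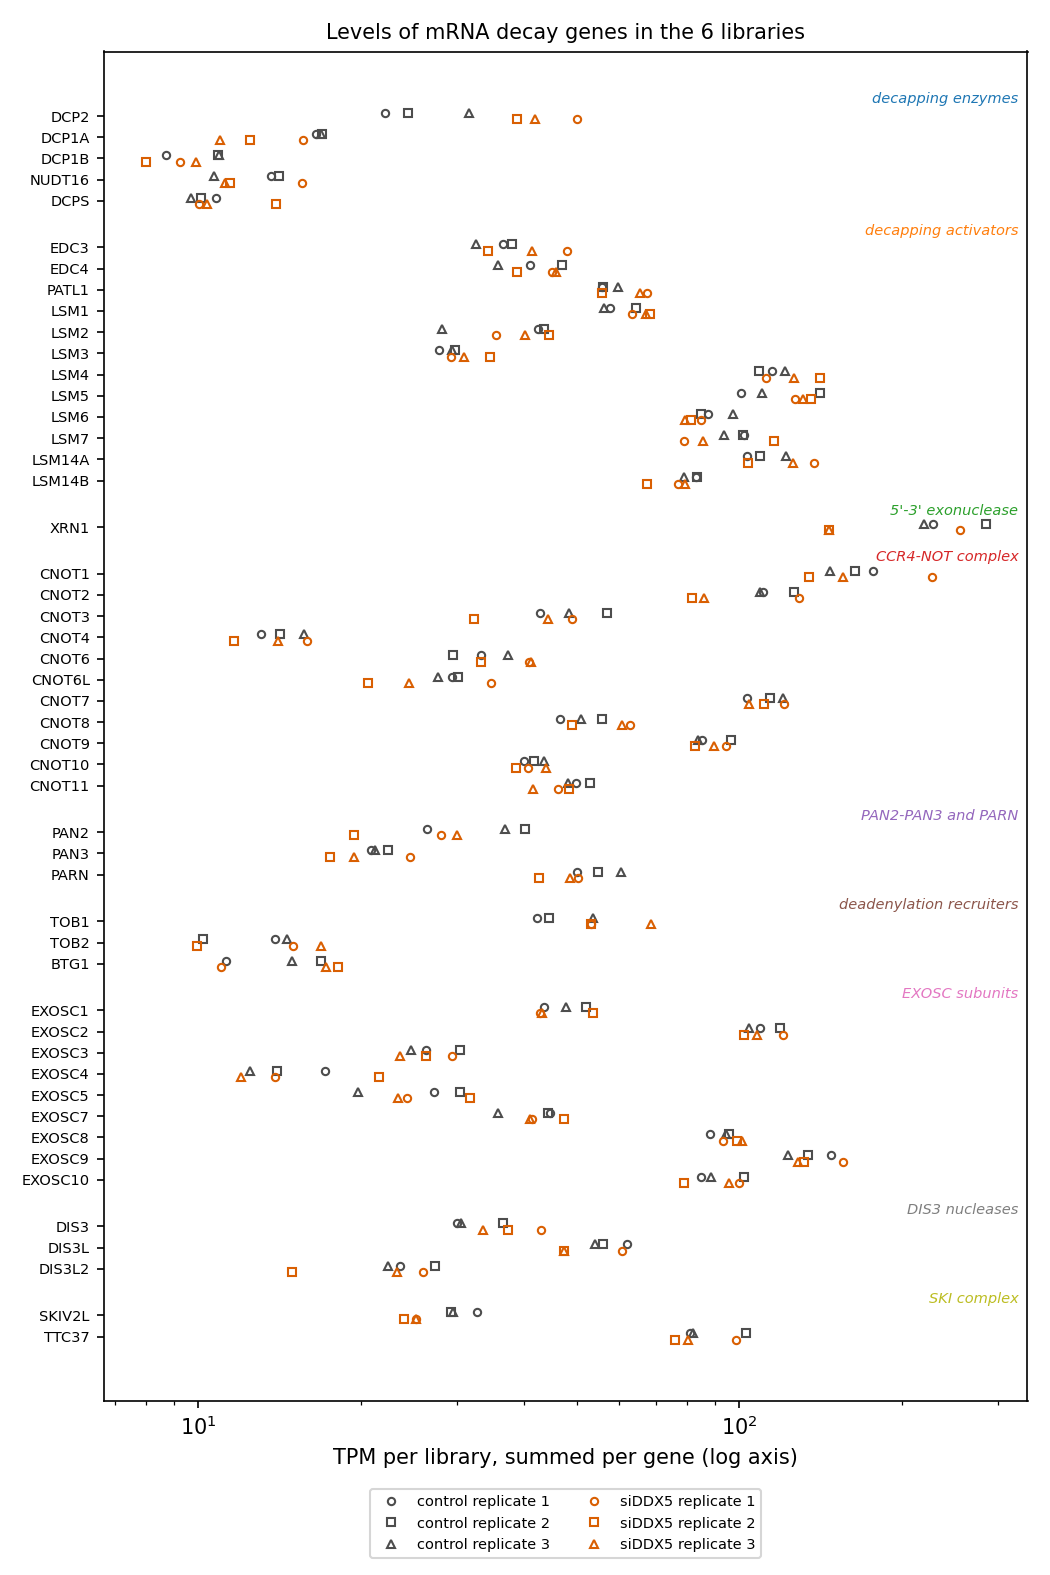
TPM of each decay gene in each of the 6 libraries (horizontal log axis), grey for control and orange for siDDX5, with a circle, square and triangle for replicates 1, 2 and 3. XRN1 and CNOT1 lie highest and DCP1B and DCPS lowest, and for DCP2 all 3 siDDX5 libraries lie to the right of all 3 control libraries.

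DCP2 (ENSG00000172795.15, chr5:112976702-113020970, plus strand, GRCh38) encodes the Nudix hydrolase that removes the cap. It stood at 73.8, 56.9 and 89.8 CPM in control replicates 1, 2 and 3, and at 168, 153 and 169 CPM in the siDDX5 libraries, in the same order. The lowest siDDX5 library was well above the highest control library, and the spread was wider among the control libraries. That gave a log2 fold change of 1.15 (standard error, SE, 0.16) at an edgeR adjusted p of 0.0293. With the replicate block it was 1.17 at an edgeR adjusted p of 0.00207, and adjusted p ran from 3.46e-09 to 0.330 across the alternatives. Within the same-numbered pairs the log2 ratios were 1.19, 1.43 and 0.91. DCP2 ranked 24 of the 15224 genes by log2 fold change and 16 by p.

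Summed over all its transcripts, DCP2 differed less in TPM than in CPM. It stood at 22.1, 24.3 and 31.7 TPM in control and at 50.2, 38.8 and 41.9 TPM in siDDX5, means of 26.05 ± 5.01 and 43.6 ± 5.90 TPM (SD, n = 3 each). The groups again did not overlap. A limma-trend fit on log2(TPM + 1) gave 0.73, and edgeR on counts rebuilt from length-scaled TPM gave 0.79, with adjusted p of 0.312 and 0.142, so the call was lost on that scale. It was also lost when any library other than control replicate 3 was left out, at log2 fold changes of 1.00 to 1.197 and edgeR adjusted p from 0.0524 to 0.179.

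DCP2 has 8 annotated transcripts, and 2 of those held nearly all of its counts. ENST00000389063 is the longest coding form, with 11 exons in the annotation, and ENST00000515408.5 has 10 exons and lacks a coding exon of 105 bases. That exon is exon 9 of the longer form (chr5:113007938-113008042), adds 35 codons without a change of frame, and has a GC content of 38.1%. The sequences below run over this junction, because it is the coding difference between the 2 forms as annotated (version 2 for the longer). They are read 5′ to 3′ from the GENCODE transcripts, with 20 bases of the neighbouring exons in lower case and the extra exon in capitals.
DCP2 with the exon: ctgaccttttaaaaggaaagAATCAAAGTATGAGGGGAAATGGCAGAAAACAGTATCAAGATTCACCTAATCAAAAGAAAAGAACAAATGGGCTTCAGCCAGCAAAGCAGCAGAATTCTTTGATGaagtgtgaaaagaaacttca
DCP2 without the exon: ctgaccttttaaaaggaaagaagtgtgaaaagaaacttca
ENST00000389063.3, of which version 2 carries the exon, held 54.4, 35.7 and 61.0 CPM in control and 131, 141 and 148 CPM in siDDX5. ENST00000515408.5 held 18.3, 15.4 and 24.9 CPM in control and 33.8, 14.4 and 22.2 CPM in siDDX5.

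The 2 transcripts thus differed in pattern: every siDDX5 library exceeded every control library for ENST00000389063.3, and the groups overlapped for ENST00000515408.5. Means were 50.4 ± 13.1 and 139.9 ± 8.23 CPM (SD, n = 3 each) for ENST00000389063.3, or 1.47 in log2 fold change (SE 0.20). For ENST00000515408.5 they were 19.6 ± 4.87 and 23.5 ± 9.77 CPM, or 0.26 in log2 fold change (SE 0.34). Neither passed over the 61174 transcripts tested one by one, with edgeR adjusted p of 0.236 and 0.915, and in that test 0.0% of all transcripts did, with or without the block. The count of 0 called DCP2 transcripts in edgeR stands beside 1 at an unadjusted p under 0.05 (7.08% of all transcripts, 7.97% with the block) and 1 called by DESeq2's Wald test, ENST00000389063.3 in both cases. The smaller difference of the gene sum in TPM was not seen for this transcript. ENST00000389063.3 stood at 11.1, 7.66 and 13.0 TPM in control and at 28.1, 25.4 and 29.4 TPM in siDDX5. Limma-trend on log2(TPM + 1) gave it a log2 fold change of 1.33, at an adjusted p of 0.209.

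As a share of all DCP2 counts, ENST00000389063.3 took 72.4%, 65.0% and 67.7% in control and 77.6%, 88.5% and 85.6% in siDDX5. ENST00000515408.5 took 24.4%, 28.0% and 27.6% in control and 20%, 9.09% and 12.9% in siDDX5. The shares of both forms did not overlap between groups, and means moved from 68.3 ± 3.74% to 83.9 ± 5.64% and from 26.7 ± 1.97% to 13.98 ± 5.54%. The test of transcript usage in edgeR (diffSpliceDGE, Simes method over the transcripts of a gene) did not call this shift: its adjusted p for DCP2 was 0.862. Transcripts ENST00000504961.1, at 1.47 ± 0.26 and 1.89 ± 0.72 CPM, and ENST00000513585.5, at 0.95 ± 0.58 and 0.73 ± 0.48 CPM, overlapped between groups, and the other 4 were each below 1 CPM in every library.

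**Figure D3:**
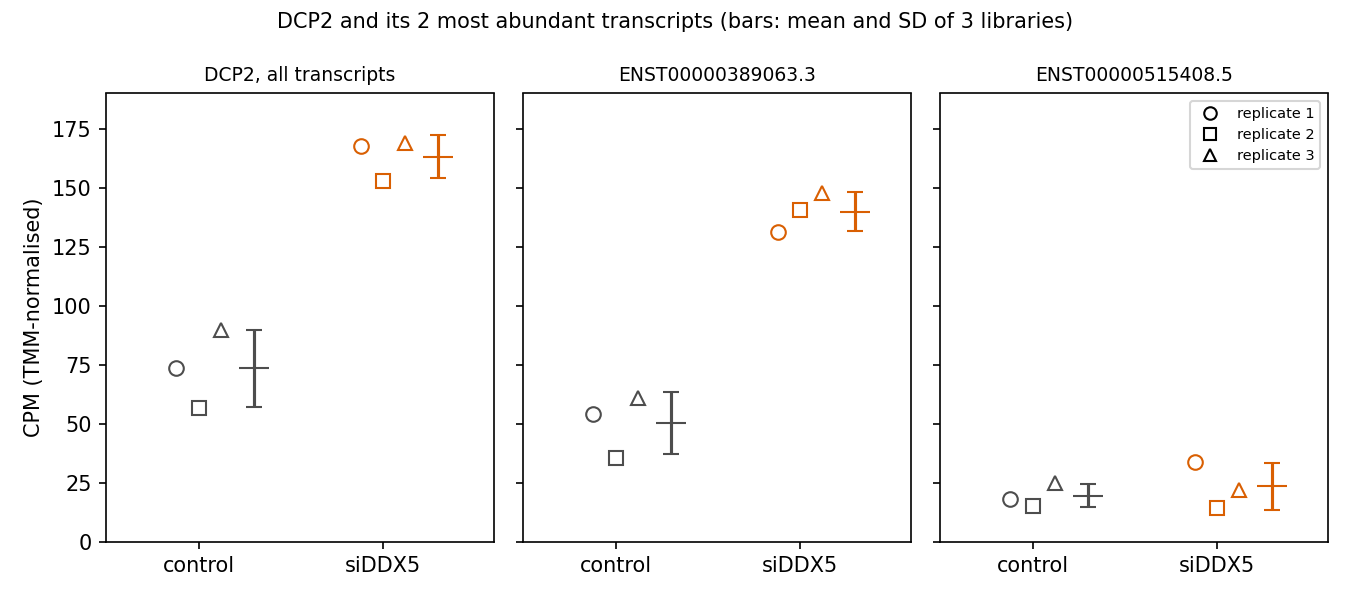
CPM of DCP2 and of its 2 most abundant transcripts (vertical axis, from 0) in control (grey) and siDDX5 (orange) libraries, with a bar for the mean and SD of 3. All siDDX5 libraries lie above the control libraries for the gene and for ENST00000389063.3, and the groups overlap for ENST00000515408.5.

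Both DCP2 forms carry a long 3′ untranslated region, drawn to scale in the exon map. It spans 7489 bases in the annotated ENST00000389063.2, the longest among the 48 members for which a length could be taken (range 49 to 7489, median 880), and ENST00000515408.5 ends 847 bases earlier. The deposited tables list version 3 of the longer transcript at 10110 bases, whereas the annotation holds version 2 at 8947 bases, so the exon content given here is that of version 2. Across the 48 members, 3′ untranslated length and log2 fold change had a Spearman correlation of 0.205, and across 13787 genes -0.003. These are descriptions across genes, which are not independent replicates and share the same 6 libraries. The entries quantified were 10110 bases long for ENST00000389063.3 and 8029 bases long for ENST00000515408.5, a wider gap than the extra exon. What version 3 adds to version 2 is not known here. Whether the reads that separate the 2 entries come from the extra exon was not tested. How far the division of reads between these 2 transcripts enters the shares was also not tested, since no estimate of it was at hand.

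**Figure D4:**
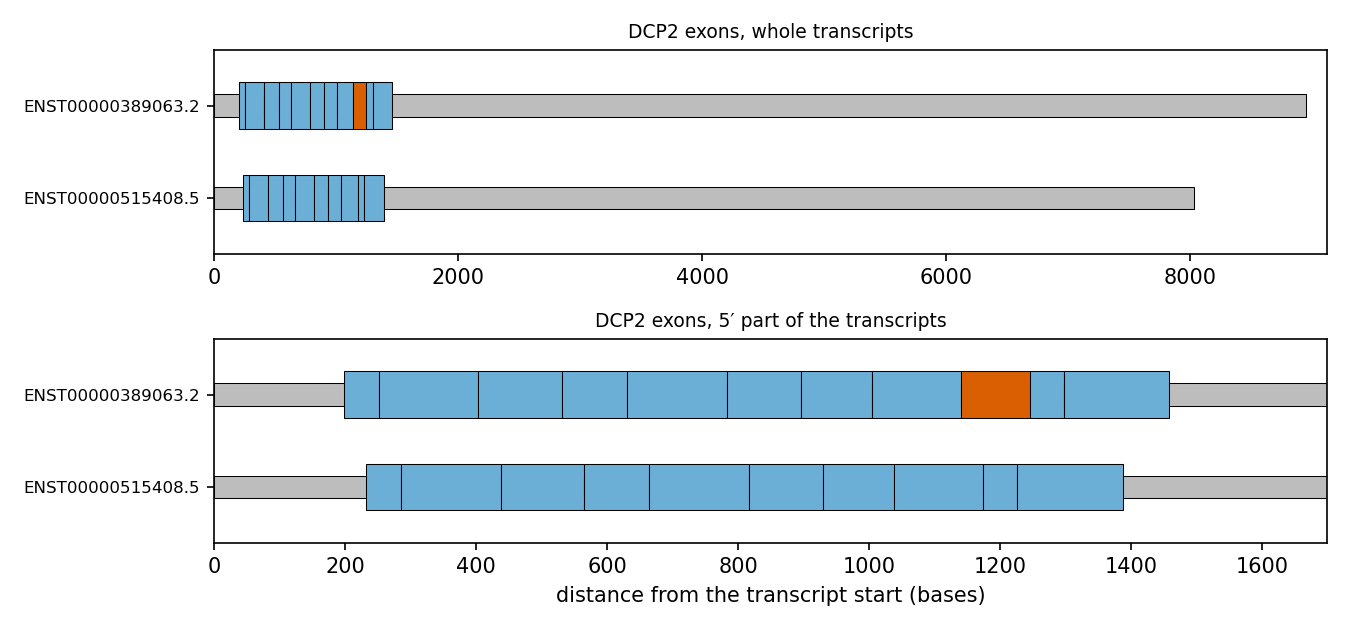
Exons of the 2 most abundant DCP2 transcripts by distance from the transcript start in bases, whole (top) and over the 5′ stretch (bottom); blue is coding, grey untranslated and orange the 105-base exon. The orange exon is present in ENST00000389063.2 and absent from ENST00000515408.5.

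The partners of DCP2 at the decapping step did not pass the test. DCP1A (chr3:53283428-53347610), the DCP2 cofactor, stood at 38.2, 42.0 and 42.1 CPM in control and at 35.0, 32.4 and 35.1 CPM in siDDX5. All 3 siDDX5 libraries were below all 3 control libraries, but the difference of -0.25 (SE 0.11) had an edgeR adjusted p of 0.419. Its paralog DCP1B stood at 10.1 ± 0.85 and 9.48 ± 0.98 CPM (SD, n = 3 each) with overlapping groups and a log2 fold change of -0.10. For DCP1B 50% of the counts were on transcripts joined to the gene by symbol or position and not by identifier. NUDT16 and DCPS, which act on capped RNA and on the cap left over after decay, had log2 fold changes of 0.01 and 0.05.

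Decapping activators numbered 12, of which 8 had positive and 4 negative log2 fold changes (median 0.171, range -0.10 to 0.25), and none was called. EDC3 (chr15:74630558-74696292), an enhancer of decapping that binds DCP2, stood at 55.0, 54.6 and 53.0 CPM in control and at 61.5, 66.3 and 66.0 CPM in siDDX5. PATL1 (chr11:59636716-59668980), which links deadenylation to decapping, stood at 142, 139 and 138 CPM in control and at 168.5, 157 and 168 CPM in siDDX5. In both genes the libraries of each group lay close together and the groups did not overlap. The log2 fold changes were 0.25 (SE 0.10) for EDC3 and 0.23 (SE 0.09) for PATL1, with edgeR adjusted p of 0.361 and 0.397.

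EDC4, the scaffold of the decapping complex, had the lowest log2 fold change of the activators, -0.10 (SE 0.11), and overlapping groups at 75.5, 73.6 and 61.5 CPM in control and 68.6, 64.3 and 63.6 CPM in siDDX5. Its sign turned in TPM, where limma-trend on log2(TPM + 1) gave 0.07. Between the paralogs LSM14A and LSM14B, which bind RNA in cytoplasmic granules, the log2 fold changes had opposite signs, 0.19 (SE 0.10) and -0.06 (SE 0.10), and the siDDX5 libraries lay above the control range in LSM14A only. The difference between the paralogs was not tested, and 43.8% of LSM14A counts were on transcripts not joined by identifier.

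The LSM1 to LSM7 ring, which holds the 3′ end of deadenylated RNA and activates decapping, had 5 positive and 2 negative members (median 0.169, range -0.06 to 0.18). Its most abundant member in TPM, LSM5, stood at 53.2, 69.8 and 56.2 CPM in control and at 61.4, 77.7 and 62.7 CPM in siDDX5, 0.17 in log2 fold change (SE 0.14) with an edgeR adjusted p of 0.689. The groups overlapped for all 7 subunits. LSM5 was highest in replicate 2 of both groups.

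XRN1 digests decapped RNA from the 5′ end. It stood at 597, 729 and 564 CPM in control and at 666, 457 and 445 CPM in siDDX5. The 2 lowest libraries were siDDX5 replicates 2 and 3, while siDDX5 replicate 1 lay within the control range. The log2 fold change of -0.27 had a standard error of 0.17 and an edgeR adjusted p of 0.592. Leaving out siDDX5 or control libraries moved it between -0.48 and -0.15, and it was not called in any of those fits.

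The CCR4-NOT deadenylase was represented by 11 genes, 6 with positive and 4 with negative log2 fold changes (median 0.035, range -0.27 to 0.23), and none was called. CNOT3 (chr19:54137717-54155708), a subunit of its NOT module, stood at 64.0, 59.9 and 57.2 CPM in control and at 51.5, 49.8 and 49.3 CPM in siDDX5. Every siDDX5 library was below every control library, at a log2 fold change of -0.27 (SE 0.10) and an edgeR adjusted p of 0.351. CNOT1, to which the other subunits attach, stood at 399.6, 330.0 and 373 CPM in control and at 411, 309 and 338 CPM in siDDX5, a log2 fold change of -0.06 (SE 0.13) with overlapping groups. Its sign was positive in TPM, 0.05 in limma-trend on log2(TPM + 1).

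Among the catalytic subunits, CNOT6 had the highest log2 fold change, 0.23 (SE 0.12, edgeR adjusted p 0.490). CNOT6 stood at 81.9, 75.9 and 94.4 CPM in control and at 100.7, 91.7 and 104 CPM in siDDX5, and control replicate 3 overlapped the siDDX5 range. Its paralog CNOT6L stood at 71.4 ± 4.72 and 73.1 ± 10.2 CPM, a log2 fold change of 0.04 (SE 0.12). The other catalytic pair, CNOT7 and CNOT8, had log2 fold changes of 0.10 and 0.15, each with all 3 siDDX5 libraries above the control range and neither called. CNOT7 was the more abundant of the pair, at 113 ± 8.61 TPM in control beside 51.1 ± 4.55 TPM for CNOT8.

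CNOT4 (chr7:135361795-135510127), the ubiquitin ligase subunit, was called for transcript usage and not for its total level. Its gene level was 24.8 ± 3.09 and 25.9 ± 3.60 CPM (SD, n = 3 each), or 0.06 in log2 fold change. The usage test gave an edgeR adjusted p of 0.00871 over 7 transcripts, and 0.0317 with the block (0.000885 to 1.0 across the alternatives). All members but LSM2, LSM3, TOB2 and BTG1 were tested for usage, and CNOT4 was the only 1 called. Of 10705 genes 1.59% were called, and with the block 1.21%, so a single call among the members is near that share. PAN2 and PARN lay not far beyond the threshold, at edgeR adjusted p of 0.0782 and 0.0865 (0.318 and 0.203 with the block). The transcript with the smallest p was ENST00000451834.5, at 4.19, 1.89 and 3.37 CPM in control and listed at 0 in all 3 siDDX5 libraries. A floor of 3 counts per library was at most 0.169 CPM in siDDX5 on the same transcript scale. The control mean of this transcript, 3.15 ± 1.16 CPM, was 18.7-fold that floor. The floor covers counting error and not the division of reads among similar transcripts, so 18.7 is not a lower bound on the change.

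By itself ENST00000451834.5 did not pass over all transcripts (edgeR adjusted p 0.218). Its closest relative in structure, ENST00000541284.5, differs from it by 47 bases at the 5′ end and by 9 bases at exon 7, which is 134 bases long in place of 125 (the added bases lie at chr7:135410515-135410523, minus strand). The sequences below span that junction, because those 9 bases, in capitals, are the coding difference between the 2 transcripts.
CNOT4 longer exon: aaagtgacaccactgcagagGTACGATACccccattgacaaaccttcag
CNOT4 shorter exon: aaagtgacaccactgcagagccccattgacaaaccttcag
ENST00000541284.5 stood at 0.90, 3.84 and 4.82 CPM in control and at 6.79, 3.53 and 8.14 CPM in siDDX5. Summed over all transcripts with the shorter exon, the level was 11.7, 9.11 and 14.3 CPM in control and 12.2, 9.93 and 14.05 CPM in siDDX5, and their share of CNOT4 counts was 47.1 ± 6.81% and 45.5 ± 3.72%. The groups overlapped in both measures, so the pattern of ENST00000451834.5 was not seen in the exon form summed over transcripts. The usage call was lost without siDDX5 replicate 3 (edgeR adjusted p 0.0576). It was also absent when transcripts needed a mean of 50 counts (1.0). That limit removed ENST00000451834.5 itself and left 3 transcripts, so that fit could not test its change.

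The remaining deadenylases, PAN2, its partner PAN3 and the poly(A)-specific ribonuclease PARN, all had negative log2 fold changes (median -0.089), and none was called. PAN2 (chr12:56316223-56334053), the catalytic subunit, stood at 37.3, 44.4 and 46.6 CPM in control and at 34.1, 31.3 and 38.9 CPM in siDDX5. It was lower in siDDX5 in all 3 same-numbered pairs, while siDDX5 replicate 3 lay within the control range. The log2 difference was -0.30 (SE 0.13), with an edgeR adjusted p of 0.435. Its transcript ENST00000257931.9, named after its values were seen, stood at 3.60, 4.93 and 7.03 CPM in control. In siDDX5 it stood at 0, 0.57 and 0 CPM, with an edgeR adjusted p of 0.505 over all transcripts.

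PAN3 stood at 47.5, 51.1 and 48.3 CPM in control and at 53.6, 45.0 and 46.1 CPM in siDDX5, a log2 fold change of -0.02 (SE 0.11). PARN, the most abundant of the 3 in TPM, stood at 61.8, 64.6 and 66.9 CPM in control and at 57.9, 63.0 and 60.8 CPM in siDDX5, a log2 fold change of -0.09 (SE 0.10). Both pairs of groups overlapped. For PARN 38.4% of the counts were on transcripts joined by symbol or position, and with transcripts joined by identifier alone its log2 fold change was 0.04.

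TOB1, TOB2 and BTG1, antiproliferative proteins that bring CCR4-NOT to its targets, all had positive log2 fold changes (median 0.282) and were higher in siDDX5 in all 3 same-numbered pairs. None was called. TOB1 (chr17:50862223-50867978) had the highest log2 fold change after DCP2, 0.37 (SE 0.14). It stood at 46.1, 47.5 and 56.4 CPM in control and at 54.9, 64.7 and 74.3 CPM in siDDX5, and the groups overlapped by control replicate 3. The edgeR adjusted p was 0.346, and 0.0591 with the block (0.0591 to 0.655 across the alternatives).

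TOB2 stood at 45.3, 33.3 and 45.9 CPM in control and at 46.3, 34.7 and 54.0 CPM in siDDX5, a log2 fold change of 0.12 (SE 0.18). BTG1 stood at 22.9, 30.3 and 30.7 CPM in control and at 23.2, 40.3 and 38.6 CPM in siDDX5, a log2 fold change of 0.28 (SE 0.21). In both genes same-numbered libraries were low or high together: replicate 2 was lowest in both groups for TOB2, and replicate 1 for BTG1. TOB1 was more abundant than its paralog, at 46.7 ± 6.05 TPM in control beside 12.9 ± 2.36 TPM for TOB2.

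The EXOSC genes, 8 subunits of the exosome barrel and cap and the nuclear nuclease EXOSC10, had log2 fold changes near 0. Of these 9 genes, 8 had positive log2 fold changes and EXOSC3 lay at -0.001, the median was 0.084 and the highest value 0.18. None was called, and none had groups that did not overlap. EXOSC9, the most abundant of them, stood at 107, 97.3 and 86.3 CPM in control and at 110.0, 103 and 95.5 CPM in siDDX5 (log2 fold change 0.08, SE 0.12, edgeR adjusted p 0.830). EXOSC3, part of the RNA-binding cap, stood at 16.4, 15.9 and 16.1 CPM in control and at 15.5, 17.2 and 15.6 CPM in siDDX5.

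EXOSC4, a barrel subunit, had the highest log2 fold change of these genes, 0.18, and also the widest standard error, 0.26. It stood at 8.63, 7.22 and 6.15 CPM in control and at 6.81, 11.9 and 6.22 CPM in siDDX5. The single high library was siDDX5 replicate 2, and without it the log2 fold change was -0.17. Replicate 2 was also the highest siDDX5 library for EXOSC5, LSM4 and LSM7, which share a short coding sequence with EXOSC4.

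The siDDX5 libraries deviated from their group mean by the coding length of the gene, taken from the most abundant annotated coding transcript of each. Over 48 members the Spearman correlation of that length with the deviation was 0.66 in siDDX5 replicate 1, -0.67 in replicate 2 and 0.12 in replicate 3, and between -0.18 and 0.17 in the control libraries. Over 13787 genes it was 0.32, -0.27 and -0.02 in the siDDX5 libraries. The 20 members with fewer than 1000 coding bases had a median deviation of -0.146 (log2) in siDDX5 replicate 1 and 0.180 in replicate 2, beside 0.036 and -0.027 for the 28 longer members. Among the 20 is DIS3L2, by a transcript of 587 coding bases. That is not a whole number of codons, so its length may be incomplete. Replicates 1 and 2 thus departed in opposite directions, as the plot by coding length shows. Deviations from the mean of the same 3 libraries cancel for each gene. With little tilt in replicate 3, the opposite signs are therefore partly built in and are not 2 independent departures. The part of this in the spread of the short LSM and EXOSC genes was not tested.

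**Figure D5:**
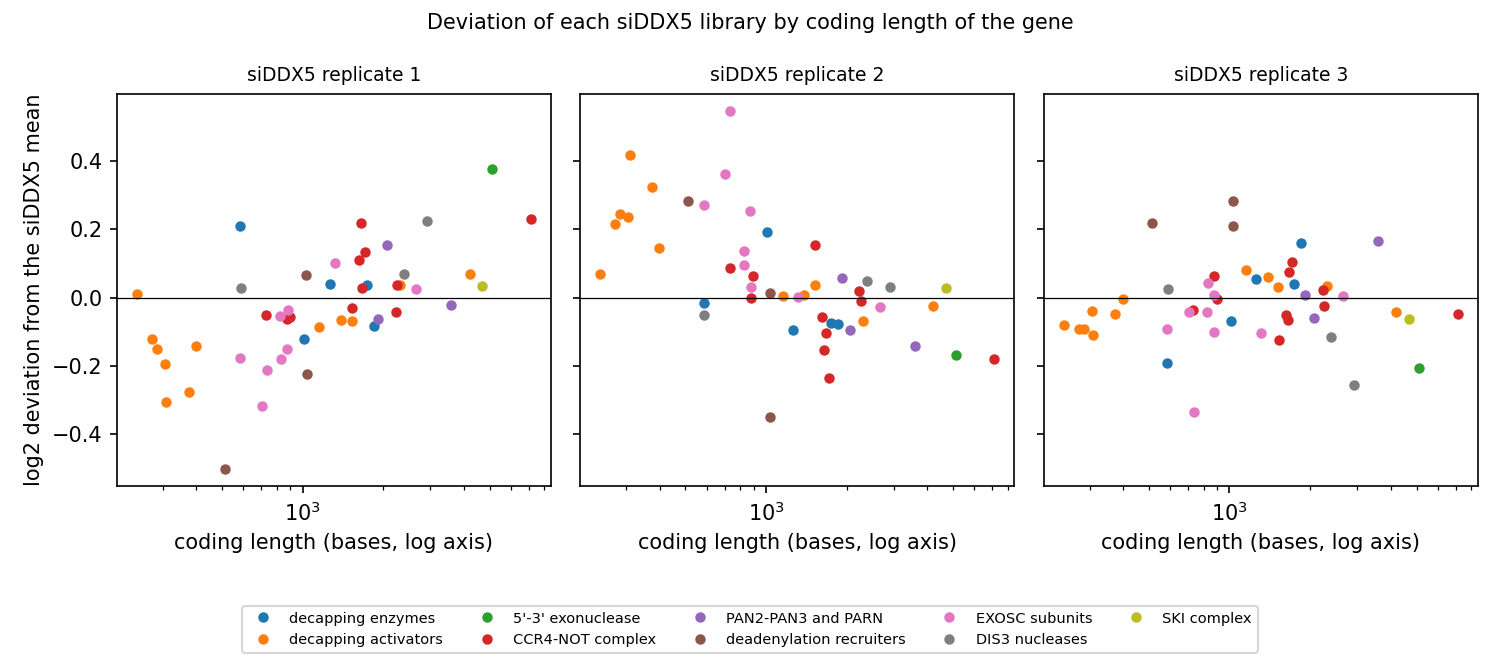
Log2 deviation of each siDDX5 library from the siDDX5 mean (vertical axis) against coding length in bases (log axis) for 48 decay genes, coloured by step. Short genes lie mostly below 0 in replicate 1 and above 0 in replicate 2, and show no such tilt in replicate 3.

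The 3 DIS3-type nucleases differed in sign. DIS3 (chr13:72752169-72782096), a catalytic subunit of the exosome, stood at 74.4, 89.3 and 75.4 CPM in control and at 100.7, 99.1 and 88.4 CPM in siDDX5. It was higher in all 3 pairs, with control replicate 2 inside the siDDX5 range, and the log2 difference was 0.27 (SE 0.11), with an edgeR adjusted p of 0.417. DIS3L2 (chr2:231961245-232344350), which degrades uridylated RNA without the exosome, stood at 31.8, 36.0 and 29.5 CPM in control and at 26.7, 25.2 and 26.6 CPM in siDDX5. It had the lowest log2 fold change of all 49 members, -0.31 (SE 0.12, edgeR adjusted p 0.375), and groups that did not overlap.

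DIS3L, the cytoplasmic paralog of DIS3, stood at 82.5, 77.8 and 71.9 CPM in control and at 90.7, 79.35 and 65.0 CPM in siDDX5, a log2 fold change of 0.02 (SE 0.13). In TPM its sign was negative, -0.15 in limma-trend on log2(TPM + 1). Neither SKI gene was called. SKIV2L, the helicase, stood at 59.2, 52.9 and 50.4 CPM in control and at 48.1, 54.1 and 54.0 CPM in siDDX5 (log2 fold change -0.06, SE 0.11). Of its counts, 97.8% were on transcripts not joined by identifier. With transcripts joined by identifier alone the SKIV2L value was -0.47 on the log2 scale (SE 0.37), at an edgeR adjusted p of 0.674. In limma-trend on log2(TPM + 1) it was -0.29 (SE 0.12), at an adjusted p of 0.559. TTC37, the scaffold, stood at 154, 178 and 168 CPM in control and at 178, 177 and 166 CPM in siDDX5 (log2 fold change 0.06, SE 0.10).

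A further 45 genes of messenger RNA decay that are not among the 49 were taken from a list by function: other decapping factors, deadenylases and poly(A)-binding proteins, exosome cofactors, uridylating enzymes and RNA-binding proteins that direct decay. None was called by edgeR, where 5 (11.1%) had an unadjusted p under 0.05 beside 11.4% of all genes. Their log2 fold changes were positive for 28 and negative for 17, with a median of 0.052 and a range of -0.43 to 0.44. With the block 1 gene, PNRC2, was called higher, and 11 (24.4%) had an unadjusted p under 0.05 beside 20.5% of all genes. PNRC2, which binds DCP1A and promotes decapping, stood at 83.6, 110.5 and 95.6 CPM in control and at 124, 129.6 and 138 CPM in siDDX5, without overlap. Its log2 fold change was 0.44 (SE 0.12), with an edgeR adjusted p of 0.233 and, with the block, 0.0486.

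By group, 6 of the 10 other decapping factors, 8 of the 10 deadenylation genes, 6 of the 11 exosome cofactors, 1 of the 2 uridylating enzymes and 7 of the 12 RNA-binding proteins had positive log2 fold changes. NUDT3, a Nudix enzyme with decapping activity, was named after its values were seen, because DESeq2's Wald test called it and edgeR did not. It stood at 104.8, 115 and 103 CPM in control and at 89.6, 78.0 and 72.8 CPM in siDDX5. The groups did not overlap, and the log2 fold change of -0.43 (SE 0.11) had an edgeR adjusted p of 0.20.

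The annotated classes of the members' transcripts were compared by their shares of each gene's counts on transcripts joined by identifier. Counts on other transcripts, which carry no class here, were left out. These were 50% of the counts for DCP1B, 43.8% for LSM14A and 38.4% for PARN. SKIV2L, at 97.8%, was left out whole. Over the other 48 members, protein-coding transcripts took a median of 94.4% of the remaining counts in control and 94.3% in siDDX5. LSM6 differed from the other members in both groups, with 26.5 ± 1.84% and 28.5 ± 0.88% (SD, n = 3 each) on protein-coding transcripts and 69.6% and 67.8% on transcripts annotated as targets of nonsense-mediated decay.

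Transcripts of that last class took a median of 0.429% of the counts in control and 0.303% in siDDX5. Of 27 members with any such count, 0 had all siDDX5 libraries above the control range, beside 4.77% of 5372 genes with such counts, and 4 (14.8%) had them below, beside 7.67%. These were LSM5, XRN1, CNOT7 and CNOT10, named after their values were seen. CNOT10, a CCR4-NOT subunit, stood at 2.75%, 2.51% and 3.80% in control and at 0.431%, 1.44% and 0% in siDDX5. The whole gene stood at 39.2, 40.9 and 41.0 CPM in siDDX5, so its lowest shares lie near or below the floor of 3 counts.

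Retained-intron transcripts took medians of 2.08% and 1.87%. Of 34 members with any such count, 2 (5.9%) had all siDDX5 libraries above the control range, EXOSC5 and CNOT10, beside 2.96% of 7464 genes. Another 3 (8.8%) had them below, DCP2, PATL1 and EXOSC9, beside 9.5%. EXOSC5 stood at 3.06%, 3.94% and 2.28% in control and at 7.21%, 6.66% and 4.29% in siDDX5, and CNOT10 at 2.16 ± 0.30% and 3.25 ± 0.91%. DCP2 lay on the other side, at 1.09 ± 0.58% in control and 0.23 ± 0.08% in siDDX5. Those are shares of a gene total that was higher in siDDX5, and each of its retained-intron transcripts overlapped between groups in CPM. The most abundant, ENST00000508359.1, stood at 0.38, 0.78 and 0.88 CPM in control and at 0.41, 0.29 and 0.32 CPM in siDDX5. In siDDX5 that was 8.31, 5.09 and 5.76 estimated counts. No test was run on these shares.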

How the data were processed

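Messenger RNA of 6 Rh30 cultures was sequenced from stranded libraries, 3 per group, with groups and replicate numbers taken from the sample titles. The authors deposited 1 table per library, which lists 188753 transcripts with estimated counts and TPM values. The layout of the columns is that of kallisto, per the file headers. The submitters' processing notes name bcl2fastq 2.20, FastQC 0.11.8, cutadapt 1.11, kallisto 0.46.0 and GRCh38, without roles, and the annotation release is not given in the sources used here. Estimated counts were deposited without normalization, with reads shared between transcripts divided among them, and TPM values were deposited already scaled for effective length and to a fixed total per library.

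Transcripts were joined to GENCODE release 29 by identifier (169797), by symbol for copies outside the primary assembly (15321) and by position (890), and 2745 were left out. Between 99.59% and 99.63% of counts were joined. Estimated counts were summed per gene, rounded, filtered with filterByExpr, scaled with TMM and tested by quasi-likelihood (glmQLFTest, edgeR 4.0.16, R 4.3.3) with group as the only term. Transcripts were tested in the same way, with their own TMM factors in transcript CPM, and usage with diffSpliceDGE over genes with at least 2 tested transcripts. A call is a Benjamini-Hochberg adjusted p under 0.05 over all features tested. The p-values measure the spread between these libraries and not the uncertainty of dividing reads among transcripts. A count of 3 equals 0.119 to 0.169 CPM on the transcript scale and covers counting error only.

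The replicate numbers were taken as pairs because the titles share them, and the labels do not state a pairing. Between same-numbered libraries, deviations from the group means over 15224 genes had correlations of 0.21, 0.27 and 0.58. Differently numbered libraries were not compared, so these values do not establish the pairing. The biological coefficient of variation was 15.7% without the block and 10.2% with it.

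Alternatives were the replicate block, DESeq2 1.42.0 (size factors and Wald test), 2 other count filters, length-scaled TPM counts, limma 3.58.1 trend on log2(TPM + 1) and log2(TPM + 0.1), 2 other joins and leaving out each library. The steps were tested on simulated data. Values are given in every library for DCP2 and its main transcripts, members with an unadjusted edgeR p under 0.05 or called with the block, and the most abundant, highest and lowest member of each step. Also named are members called for usage, paralog pairs, and other decay genes called with or without the block. The members, lists and rules were chosen with earlier results of these data known.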

Additional observations from a re-analysis of the deposited data

How the results depend on the processing

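The DCP2 log2 fold change was positive under every alternative run, but its call was lost with length-scaled TPM counts (0.79), limma-trend at a TPM pseudocount of 1 (0.73) or 0.1 (0.75), and it ranged from 1.00 to 1.32 when 1 library was left out, with the call kept only without control replicate 3. Accordingly the members called numbered 0 with length-scaled TPM counts (3 at an unadjusted p under 0.05) and with both limma fits (2 and 3), and 0 to 1 with a library left out. The replicate block kept the DCP2 call (1.17), changed no call among the other members, and raised the other decay genes called from 0 to 1, as did DESeq2's Wald test (1, a different gene). DESeq2 called 1 DCP2 transcript where edgeR called 0. Members called for usage numbered 5 without a count filter (CNOT4, PAN2, PARN, SKIV2L and EXOSC8) and 1 to 4 with a library left out. With a mean of at least 50 counts the 1 member called was PAN2, and ENST00000451834.5 of CNOT4 was not among the transcripts tested. Of 22 named members other than DCP2, 10 changed sign in 31 of 352 fits, none of them called. With length-scaled TPM counts, limma at pseudocounts of 1 and 0.1, the values were 0.11, 0.069 and 0.0706 for EDC4, 0.12, 0.0524 and 0.0525 for CNOT1, -0.10, -0.15 and -0.15 for DIS3L, and -0.0188, -0.0635 and -0.0642 for TTC37. EXOSC3 turned to 0.0066 with DESeq2 size factors, 0.0064 with the Wald test, 0.0117 with length-scaled TPM counts and 0.0040 with the join by identifier, which also turned PARN to 0.0393. With 1 library left out, values ranged from -0.18 to 0.0272 for CNOT1, -0.10 to 0.0255 for PAN3, -0.0277 to 0.27 for TOB2, -0.0509 to 0.0302 for EXOSC3, -0.17 to 0.36 for EXOSC4, -0.10 to 0.14 for DIS3L and -0.11 to 0.0176 for SKIV2L. The causes of these changes were not tested. A floor of 3 counts limits statements on transcripts below about 0.169 CPM.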
